A study of Mus musculus with 12 samples.

Results

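The genes examined here are those that write, erase and read DNA methylation, measured in the hippocampus of adult mice. The group holds 9 genes of the 35580 genes to which the transcripts in the deposited table could be summed, chosen by name for their role: 3 writers (Dnmt1, Dnmt3a and Dnmt3b), 3 erasers (Tet1, Tet2 and Tet3) and 3 readers (Mbd1, Mbd2 and Uhrf2). They have 81 transcripts in the table. Of these, 46 reached 0.1 TPM in at least 6 of 12 libraries and were tested, 24 were above 0 in some library but stayed under that limit, and 11 were listed at 0 in every library. The summed values of all 9 genes passed the same limit. TPM is a transcript level corrected for transcript length and for the depth of the library, so levels can be compared between genes.

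The study asked how early ethanol and separation stress change the adult hippocampus. All 12 animals were male C57BL/6 mice (the J substrain, per the study's methods) of postnatal day 70, 3 in each of 4 groups, and each library held the RNA of 1 mouse. Control mice had dams that drank water only and were left with them. Ethanol mice had dams that could choose 10% ethanol in water during pregnancy and, per the study's methods, until postnatal day 10, so that access overlapped in time with the separation. Stress mice had water-drinking dams and were kept apart from dam and litter for 3 hours a day on postnatal days 2 to 14, and ethanol + stress mice had both exposures. Intake was voluntary, and the stressed and unstressed pups were taken from the same litters, so mice of different groups can be littermates. The labels do not tie mice to litters, and p-values below measure the spread between these mice. The tissue label was checked against markers: the summed level of 3 neuronal genes (Snap25, Syt1 and Rbfox3) was 1742 to 2340 TPM, and markers of CA1 (53.6 to 110.9 TPM), CA3 (148 to 196 TPM) and dentate granule cells (52.5 to 89.0 TPM) were above 0 in every library. Of the 12 libraries 3 stood apart: ethanol 2 and ethanol + stress 2 and 3 had Syt1, a synaptic vesicle protein, at 280, 250 and 284 TPM against 399 to 539 TPM in the other 9, Rbfox3 at 73.2, 65.4 and 69.7 TPM against 85.8 to 99.8 TPM, and the highest library sums. Snap25 followed in part. It was at 1685 TPM in ethanol 2, above all controls (1548 to 1579 TPM). In ethanol + stress 2 and 3 it was below them, at 1528 and 1388 TPM. Both CA1 markers were lowest in these libraries (Wfs1 at 21.5, 19.8 and 25.7 TPM against 31.8 to 54.8 TPM). The astrocyte markers Slc1a3 (434, 424 and 485 TPM against 301 to 379 TPM) and Aldh1l1 were highest there. Aqp4 and Gja1, also of astrocytes, were not among the highest in ethanol 2. For some results below, the value without these 3 libraries is given as well. Ethanol + stress then rests on 1 mouse, assumed to vary like the other groups. Other tissue varied more. The 5 choroid plexus markers summed to between 39.9 and 7224 TPM, and the 5 blood markers to 1603 to 2022 TPM in controls, 3146 to 6815 TPM in ethanol, 2593 to 3392 TPM in stress and 2454 to 6480 TPM in ethanol + stress libraries, so that every exposed library lay above every control library. The part of this blood RNA in the values below was not tested. As whole tissue was measured, fewer cells of a type and less RNA per cell cannot be told apart.

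DNA methylation is the addition of a methyl group to cytosine, in mammals mostly where a guanine follows (CpG). Dnmt1 copies the marks onto new strands when DNA is replicated, and Dnmt3a and Dnmt3b set marks where there were none. Tet enzymes oxidise methylcytosine as the first step towards its removal, and proteins with a methyl-CpG binding domain recruit repressors to methylated DNA. Neurons no longer divide, yet keep Dnmt1 and Dnmt3a and are rich in hydroxymethylcytosine, the first product of the Tet enzymes.

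The transcript called in stress mice, Dnmt1-203, differs from the other main Dnmt1 transcripts in its first exon, so the bases before the 3 annotated first exons are shown. Use of the starts was not tested. The mouse gene is known to use separate first exons in oocytes, somatic cells and spermatocytes. RefSeq (GRCm38.p6) gives 3 starts on the minus strand of chromosome 9, which are also the starts of Dnmt1-202, Dnmt1-201 and Dnmt1-203 in the GENCODE annotation. The stretches below end at the base before each start and leave out untranslated bases of other transcripts. In that of Dnmt1-203 the first 80 bases, which hold 9 CpG, are coding exon of Dnmt1-201. They lie at chr9:20959889-20960138, chr9:20952980-20953229 and chr9:20952624-20952787. Capitals mark each CpG (the motif CG, which reads the same on both strands).
Dnmt1-202: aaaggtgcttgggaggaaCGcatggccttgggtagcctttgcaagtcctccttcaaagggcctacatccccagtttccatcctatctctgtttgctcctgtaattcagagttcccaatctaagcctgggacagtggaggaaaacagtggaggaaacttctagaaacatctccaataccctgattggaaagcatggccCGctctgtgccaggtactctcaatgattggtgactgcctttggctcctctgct
Dnmt1-201: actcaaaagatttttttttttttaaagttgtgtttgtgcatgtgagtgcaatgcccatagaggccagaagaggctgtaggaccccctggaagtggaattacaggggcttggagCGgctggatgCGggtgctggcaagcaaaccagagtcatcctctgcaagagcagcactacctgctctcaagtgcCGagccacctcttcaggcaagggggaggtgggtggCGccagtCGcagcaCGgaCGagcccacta
Dnmt1-203: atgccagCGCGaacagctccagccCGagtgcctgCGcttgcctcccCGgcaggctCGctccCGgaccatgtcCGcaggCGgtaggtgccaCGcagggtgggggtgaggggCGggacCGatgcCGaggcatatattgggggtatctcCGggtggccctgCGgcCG

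These stretches hold 2 CpG in 250 bases, 7 in 250 and 16 in 164, so the start of Dnmt1-203 is the richest in CpG. Over whole windows of 300 bases (250 before the start and 50 after), the counts were 2, 12 and 33 CpG. Of 32851 such windows in the RefSeq table, 85.9%, 39.6% and 8.56% held at least as many. The table has 11 windows for 7 of the 9 genes, with 2 to 57 CpG each against a median of 7 for all windows, and the richest was that of Tet2, which 0.152% of windows equalled. Methylation itself was not analysed here.

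The readers Mbd2 and Uhrf2 had the highest levels, and Dnmt3b the lowest. Mean levels over the 12 libraries were 41.3 TPM for Mbd2, 31.4 for Uhrf2, 20.9 for Dnmt3a, 19.7 for Dnmt1, 19.0 for Mbd1, 7.23 for Tet2, 6.66 for Tet1, 5.93 for Tet3 and 0.480 for Dnmt3b. The ranges over libraries set Mbd2 apart from Uhrf2, Uhrf2 from Dnmt3a, Mbd1 from Tet2, and Tet3 from Dnmt3b. The ranges of Dnmt3a, Dnmt1 and Mbd1 overlapped, and Dnmt3a was above Dnmt1 in 9 of 12 libraries. The 3 Tet genes overlapped as well, in the order Tet2, Tet1, Tet3, and each neighbouring pair kept this order in 10 of 12 libraries. That order depends on which transcripts are summed. Over coding transcripts alone, the control means were 2.47 TPM for Tet1, 4.18 for Tet2 and 5.29 for Tet3. Weighted by transcript length they were 6.74, 7.51 and 5.91. Among the 18434 genes tested, Mbd2 stood at the 79.2nd percentile by mean level, Tet3 at the 41.3rd and Dnmt3b at the 14.5th. Dnmt3b rested on 2 to 16 recovered read pairs per library, the other 8 genes on 226 to 1079.

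None of the 9 genes was called in any comparison. A call meant an unadjusted p under 0.01 with limma on log2(TPM + 0.5), the threshold the study used for transcripts. Of 18434 genes, 0.678% were called with ethanol, 0.51% with stress and 0.971% with both exposures against control, 0.461% for the interaction of both exposures, and 0.721% for any difference among the 4 groups. A threshold of 0.01 alone would pass 184 of 18434 genes, and 125, 94 and 179 passed in the 3 comparisons with control. At an unadjusted p under 0.05 the 9 genes gave 0, 0 and 1 in these comparisons and 1 for the interaction, each time Dnmt3a. The median log2 difference over the 9 genes was 0.05 with ethanol, 0.01 with stress and 0.03 with both, beside 0.02, 0.00 and 0.02 over all genes. An exact permutation test of 3 mice against 3 cannot go below p = 0.1, so only the limma fit across all genes is given. The 3 comparisons share the control mice.

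**Figure D1:**
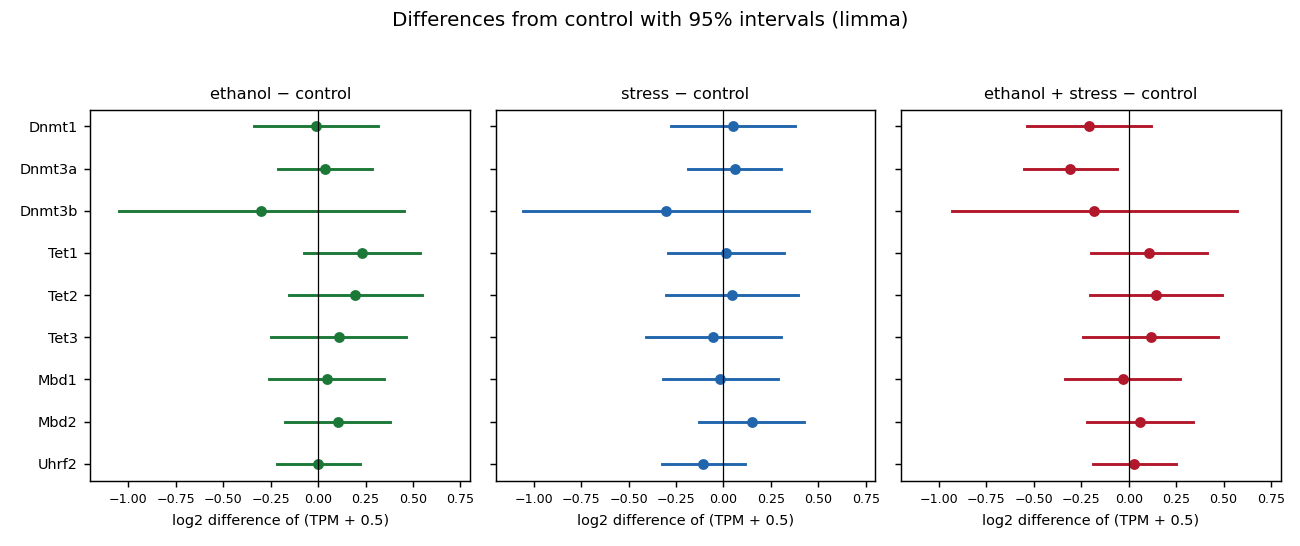
Difference from control of log2(TPM + 0.5) for the 9 genes in ethanol, stress and ethanol + stress mice (horizontal axis), with the estimate as a point and its 95% interval from limma as a line. Apart from Dnmt3a in ethanol + stress mice (-0.55 to -0.06), every interval crossed 0, and those of Dnmt3b were the widest.

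Dnmt1, the maintenance methyltransferase, had values of 21.5, 18.9 and 20.0 TPM in controls. It was at 17.7, 19.3 and 23.3 TPM in ethanol, 20.2, 23.1 and 19.4 TPM in stress and 21.9, 15.0 and 15.9 TPM in ethanol + stress mice. The groups overlapped: 2 ethanol + stress mice had the lowest values of all, and the third was above every control. The 2 low mice are those of low Syt1 and Rbfox3, whose part in the difference was not tested. The log2 difference from control was -0.21 ± 0.15 (SE, n = 3 per group) in ethanol + stress mice (limma, unadjusted p = 0.187, adjusted p = 0.791), and the differences in the other groups were smaller. Leaving out 1 library moved it to between -0.37 (without ethanol + stress replicate 1) and -0.11 (without replicate 2), and without the 3 libraries of low Syt1 it was 0.12, of the opposite sign.

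Dnmt3a, the main de novo methyltransferase of the adult brain, had its lowest values in ethanol + stress mice. It was at 19.9, 21.6 and 23.1 TPM in controls, 20.0, 22.2 and 24.3 TPM in ethanol and 24.5, 22.1 and 20.8 TPM in stress mice. In ethanol + stress mice it was at 15.4, 18.8 and 17.8 TPM. All 3 of these values lay below the other 9, a pattern seen in either direction for 0.732% of tested genes. The log2 difference from control was -0.31 ± 0.11 (SE), with a 95% interval of -0.55 to -0.06, an unadjusted p of 0.0189 and an adjusted p of 0.791 (limma), short of the threshold. Rescaled to equal library totals it was -0.44 and called (limma, unadjusted p = 0.00992). That rescaling moved the median log2 difference over all genes to -0.092, from 0.023 as deposited. The interaction was -0.40 ± 0.16 (unadjusted p = 0.0268, adjusted p = 1). Without the 3 libraries of low Syt1 the difference was -0.47 (limma, unadjusted p = 0.0147).

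The lower Dnmt3a sum came mostly from transcript models shorter than Dnmt3a-201. Of a difference in mean level of -4.20 TPM between ethanol + stress and control mice, Dnmt3a-204 (1115 bases) made up -2.06 TPM, Dnmt3a-205 (2328 bases) -1.09 TPM and Dnmt3a-206 (827 bases) -0.95 TPM. Dnmt3a-205 has a coding length of 2067 bases, beside 2724 for Dnmt3a-201. It was at 1.25, 1.22 and 1.40 TPM in controls and 0.353, 0.247 and 0 TPM in ethanol + stress mice, and was listed at 0 in 5 libraries. The full-length Dnmt3a-201 (9685 bases, 36% of the gene's TPM on average in control mice) made up -0.91 TPM, and its values overlapped between control (7.0, 8.28 and 8.22 TPM) and ethanol + stress mice (8.05, 5.43 and 7.29 TPM). Neither Dnmt3a-204 nor Dnmt3a-206 has a base of its own within the gene. Dnmt3a-204 was at 3.69, 3.86 and 2.77 TPM in controls and 1.71, 2.43 and 0 TPM in the ethanol + stress group, and Dnmt3a-206 at 5.65, 4.18 and 6.87 TPM against 0.904, 7.0 and 5.94 TPM. For Dnmt3a-204 all 3 ethanol + stress mice lay below all 3 controls, with a log2 difference of -1.40 ± 0.59 (SE, limma, unadjusted p = 0.0381, adjusted p = 0.888), not past the threshold, and of -0.62 without ethanol + stress replicate 3, the mouse at 0 (-0.82 without the 3 libraries of low Syt1). For Dnmt3a-206 the groups overlapped, and 1 mouse held the low value. Weighted by transcript length before summing, which follows the read pairs rather than the molecules, Dnmt3a was at 19.2, 23.3 and 23.5 in control and 20.5, 16.5 and 20.0 in ethanol + stress mice. These ranges overlapped, and the difference was -0.21 ± 0.14 (SE, limma, unadjusted p = 0.168), with an interaction of -0.11 ± 0.20 (unadjusted p = 0.602). Summed over coding transcripts alone it was -0.33 ± 0.11 (SE, limma, unadjusted p = 0.014), and the interaction -0.39 ± 0.16 (unadjusted p = 0.0331).

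**Figure D2:**
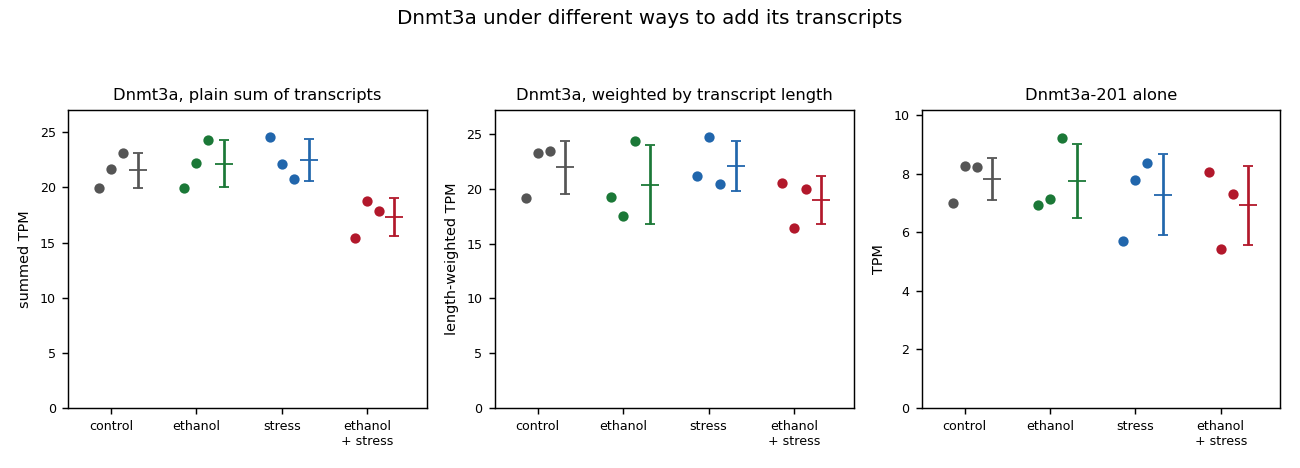
Dnmt3a in each library (vertical axes from 0) as the plain sum of its transcripts in TPM, as a sum weighted by transcript length, and as the full-length transcript Dnmt3a-201 alone. Points are mice and bars the mean with SD (n = 3); ethanol + stress mice lay apart from control in the left panel and overlapped with control in the other panels.

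Dnmt3b, which sets marks mainly in the embryo, was at 0.540, 0.664 and 0.537 TPM in controls, 0.268, 0.615 and 0.285 TPM in ethanol, 0.0644, 0.246 and 1.09 TPM in stress and 0.383, 0.238 and 0.824 TPM in ethanol + stress mice. The stress mice held both the lowest and the highest value. No difference was detectable at this depth. Dnmt3b-211, a retained-intron model, held 52.4% of the summed TPM, and the coding models Dnmt3b-206 and Dnmt3b-207 held 18.4% and 15.5% and were listed at 0 in 7 and 6 libraries.

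Tet1, an eraser with a CXXC domain that binds CpG-rich DNA, was at 5.85, 6.32 and 6.44 TPM in controls and 7.87, 6.84 and 7.42 TPM in the ethanol group. It was at 6.69, 6.66 and 5.51 TPM in stress and 8.01, 6.06 and 6.23 TPM in ethanol + stress mice. All ethanol mice lay above all control mice, and both stressed groups overlapped with control. The log2 difference in ethanol mice was 0.23 ± 0.14 (SE, limma, unadjusted p = 0.126, adjusted p = 0.997), with length weighting it was 0.048 (unadjusted p = 0.695), and over coding transcripts alone it turned to -0.06 (unadjusted p = 0.772). Groups that do not overlap were found for 1 of 9 members (Tet1) in ethanol, 0 in stress and 1 (Dnmt3a) in ethanol + stress mice, beside 8.25%, 7.2% and 10.2% of all genes.

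By TPM, most of Tet1 was a model that is not coding, and by read pairs most of it was coding. Tet1-202, a processed transcript of 1505 bases in 3 exons with no annotated reading frame, held 62.8% of the gene's summed TPM, and the full-length coding models Tet1-206 (14369 bases) and Tet1-201 (13986 bases) held 19.3% and 7.6%. Of the recovered read pairs of the gene, Tet1-202 took 13.5% to 22.4% over the libraries and the longer Tet1-201 and Tet1-206 together 76.0% to 84.6%. Tet1-202 starts inside the first intron of Tet1-201 with an exon of 169 bases found in no other Tet1 transcript. Its sequence to the end of the second exon is shown because only the first exon sets it apart: the first exon (chr10:62865136-62865304, GRCm38, minus strand) is in lower case and the second (chr10:62864808-62864861), which the coding models share, in capitals. The sequence is that of the GENCODE transcript.
Tet1-202: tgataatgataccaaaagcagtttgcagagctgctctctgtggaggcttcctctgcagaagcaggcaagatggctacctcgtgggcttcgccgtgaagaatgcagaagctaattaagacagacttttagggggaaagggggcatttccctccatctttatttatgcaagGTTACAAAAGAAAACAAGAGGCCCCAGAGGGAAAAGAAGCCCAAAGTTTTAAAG

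As deposited, Tet1-202 was highest in the libraries of mice exposed to ethanol, with or without stress, a split that ended when every library was rescaled to the same total but stayed for its share in the gene, which such scaling does not touch. It was at 3.67, 4.03 and 3.51 TPM in controls and 3.08, 3.49 and 3.20 TPM in the stress group. It was at 5.60, 4.57 and 4.94 TPM in ethanol and 5.33, 4.29 and 4.44 TPM in ethanol + stress mice. Each of these 6 values lay above each of the other 6, a split that 1 of 46 member transcripts and 0.396% of all 59852 tested transcripts showed in either direction, and all stress values lay below all control values. Rescaled to equal totals, 3 of the 6 values of ethanol-exposed mice lay above all others, and ethanol 2 (3.89), ethanol + stress 2 (3.81) and ethanol + stress 3 (3.93) lay below control 2 (4.23). None of the comparisons passed the threshold: the log2 difference was 0.38 ± 0.17 in ethanol (SE, unadjusted p = 0.0428, adjusted p = 0.908), 0.29 ± 0.17 in ethanol + stress (unadjusted p = 0.113, adjusted p = 0.888) and -0.17 ± 0.17 in stress mice (unadjusted p = 0.324, adjusted p = 1). The levels rested on 34.5 to 64.8 recovered read pairs per library. Tet1-201 and Tet1-206 share nearly all their bases and each ranged down to 0 read pairs, so they were added: the sum was 1.86 ± 0.0743 TPM (SD, n = 3) for control, 1.82 ± 0.193 for ethanol, 1.81 ± 0.207 for stress and 1.66 ± 0.205 for ethanol + stress mice, with overlapping values. The share of Tet1-202 in the gene was 60.3% ± 5.08 (SD) for control, 68.2% ± 2.57 for ethanol, 52.2% ± 6.07 for stress and 69.5% ± 2.53 for ethanol + stress mice. All 6 ethanol-exposed mice (66.6% to 71.3%) lay above all 6 others (46.0% to 63.7%) in this share. How often the shares of other transcripts split in this way was not computed, and the 0.396% above is for levels only. The share is taken from the same values as the level, so it is not separate support.

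**Figure D3:**
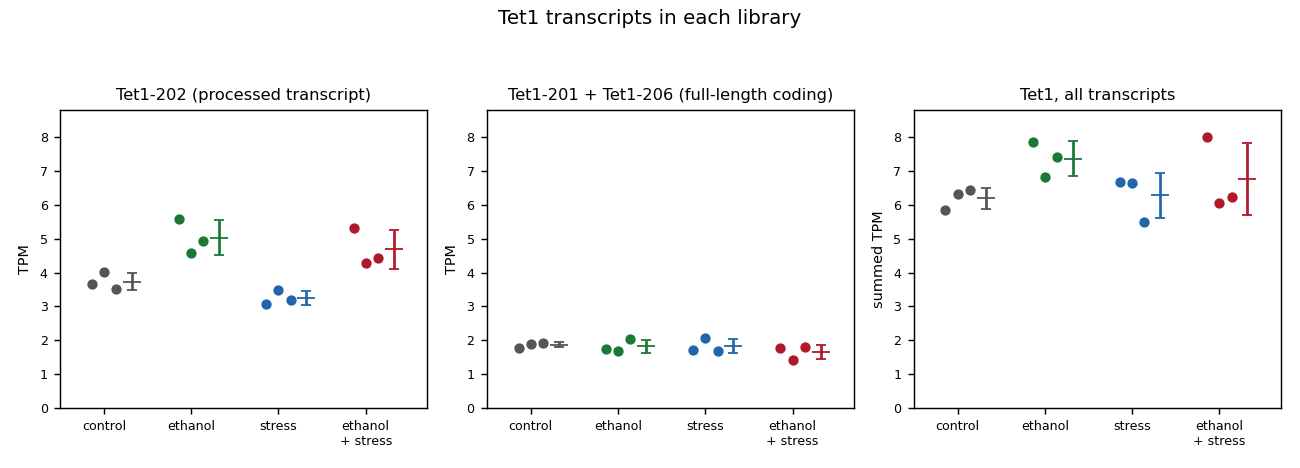
TPM (vertical axes, the same from 0 in all panels) of the processed transcript Tet1-202, of the full-length coding transcripts Tet1-201 and Tet1-206 added, and of all Tet1 transcripts, in each library. Points are mice and bars the mean with SD (n = 3); for Tet1-202 the ethanol and ethanol + stress points lie above 4.2 TPM and the others below 4.1 TPM, a split that rescaling to equal totals ends, while the share of Tet1-202 in the gene keeps it (66.6% or more against 63.7% or less).

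Tet2, the Tet enzyme without a CXXC domain of its own, was at 5.90, 7.26 and 6.95 TPM in controls, 6.85, 8.74 and 7.68 TPM in ethanol, 7.81, 6.03 and 7.01 TPM in stress and 8.90, 7.30 and 6.30 TPM in ethanol + stress mice. The groups overlapped, and the log2 difference in ethanol mice was 0.20 ± 0.16 (SE, limma, unadjusted p = 0.246). It was 0.02 with length weighting, 0.12 over coding transcripts and after rescaling, and 0.11 without control replicate 1 or ethanol replicate 2. Its 4 coding models held 62.2% of the TPM, of which Tet2-201 held 50.5%, and the retained-intron models Tet2-210 and Tet2-208, single exons, held 16.7% and 10.1%. Tet2-208 was above all controls (0.628, 0.477 and 0.648 TPM) in ethanol mice (0.948, 0.931 and 0.701 TPM) and in ethanol + stress mice (0.707, 0.733 and 0.857 TPM), and neither difference passed the test.

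Tet3, the Tet enzyme known for oxidising the paternal genome after fertilisation, was at 5.41, 5.60 and 6.11 TPM in controls, 6.08, 5.5 and 7.03 TPM in ethanol, 4.58, 6.97 and 5.12 TPM in stress and 6.16, 6.77 and 5.77 TPM in ethanol + stress mice. Stress mice held the lowest value and the next to highest one. All groups overlapped, and no difference from control was past the threshold. Tet3-202, with a coding length of 5004 bases, held 74.2% of the TPM and Tet3-203, with a coding length of 5409 bases and another first exon, held 14.7%. Their shares ranged from 58.9% to 84.3% and from 8.88% to 20.5% over the libraries.

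Mbd1, which binds methylated CpG and can also bind unmethylated CpG, was at 19.0, 17.4 and 20.5 TPM in controls, 19.7, 17.0 and 22.4 TPM in ethanol, 19.0, 19.1 and 18.0 TPM in stress and 22.8, 16.2 and 17.1 TPM in ethanol + stress mice. All groups overlapped, and no difference from control was past the threshold. Its 4 transcripts over 10% of the TPM did not all keep to that level: Mbd1-204 (43.6%) and Mbd1-203 (12.9%, retained intron) overlapped between groups, while Mbd1-201 (12.2%) was at 2.75, 2.81 and 3.57 TPM in controls and 0, 2.6 and 1.10 TPM in the ethanol + stress group. In stress mice it was at 2.2, 2.63 and 2.47 TPM, also below all controls. Mbd1-202 (29.3%) was at 4.56, 4.70 and 5.15 TPM in controls and 9.69, 5.38 and 5.54 TPM in the ethanol + stress group. Thus 1 ethanol + stress mouse held both the 0 of Mbd1-201 and the highest value of Mbd1-202. Of the 2833 bases of Mbd1-201, 47 are in no other Mbd1 transcript, and the sum of Mbd1-201 and Mbd1-202 was not tested. The log2 differences were -1.38 ± 0.52 for Mbd1-201 (unadjusted p = 0.0223, adjusted p = 0.877) and 0.43 ± 0.27 for Mbd1-202 (unadjusted p = 0.137), neither past the threshold. Without ethanol + stress replicate 2, that of Mbd1-201 was -1.98 and called (limma, unadjusted p = 0.00109), and without ethanol + stress replicate 1, the mouse at 0, it was -0.66 (limma, unadjusted p = 0.0588). That of Mbd1-202 was 0.17 without ethanol + stress replicate 1. Without the 3 libraries of low Syt1, which leaves this mouse alone in its group, the values were -2.82 and 0.94.

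Mbd2, a methyl-CpG binding subunit of the NuRD repressor complex, was at 42.1, 36.3 and 38.6 TPM in controls, 38.8, 38.9 and 48.4 TPM in ethanol, 46.3, 45.6 and 38.2 TPM in stress and 45.0, 34.7 and 42.7 TPM in ethanol + stress mice. The groups overlapped, and the log2 difference in stress mice was 0.15 ± 0.13 (SE, limma, unadjusted p = 0.263), and 0.10 to 0.24 with 1 library left out. Mbd2-201, the main one of 2 coding models, held 69.1% of the TPM. It was at 27.7, 28.4 and 27.6 TPM in controls and 28.7, 32.6 and 29.6 TPM in the stress group, all above control. That difference did not pass the test. Mbd2-204, a retained-intron model of 494 bases, held 21.7% and ranged from about 0 in 1 ethanol + stress mouse to 16.0 TPM in 1 ethanol mouse.

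Uhrf2, a ubiquitin ligase that binds hydroxymethylated DNA, varied least of the 9 genes in plain summed TPM, by a coefficient of variation of 7.70% over all libraries. It was at 30.0, 30.8 and 34.4 TPM in controls, 30.6, 30.3 and 34.3 TPM in ethanol, 28.6, 31.1 and 28.6 TPM in stress and 34.2, 34.6 and 28.6 TPM in ethanol + stress mice. All groups overlapped, and the log2 difference in stress mice was -0.11 ± 0.10 (SE, 95% interval -0.33 to 0.11). It was -0.044 with length weighting, -0.0083 over coding transcripts and -0.048 without control replicate 3. Uhrf2-201, its 1 coding model, held 83.4% of the TPM. The retained-intron model Uhrf2-203 (0.9%) was at 0.594, 0.714 and 0.606 TPM in controls and between 0 and 0.56 TPM in the 9 exposed mice, on at most 6.4 read pairs, and did not pass the threshold in any comparison with control (limma, unadjusted p = 0.0324, 0.0496 and 0.047). Without stress replicate 2 it was called in stress mice, and without ethanol + stress replicate 2 in ethanol + stress mice (limma, unadjusted p = 0.00717 and 0.00794).

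Among the 46 transcripts tested, 1 was called in each comparison. The share called among all 59852 transcripts was 1.26% in ethanol, 0.914% in stress, 1.21% in ethanol + stress mice, 0.854% for the interaction and 1.19% for any difference, so 1 of 46 was close to the background in each. The median log2 difference of the 46 transcripts was 0.05, -0.02 and -0.01 in the 3 comparisons with control, beside 0.05, 0.00 and 0.04 for all transcripts. Groups that did not overlap with control were found for 5, 7 and 8 of 46, beside 10.2%, 8.22% and 10.2% of all transcripts.

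In ethanol mice the called transcript was Dnmt3a-208, a coding model of 467 bases whose 289 private bases lie in the long introns of Dnmt3a. It was listed at 0 in all 3 control mice and at 1.91, 1.04 and 0.810 TPM in ethanol mice. It was at 0, 0 and 0.821 TPM in stress and 0.450, 0 and 0.941 TPM in ethanol + stress mice. These are 2.0 to 4.4 recovered read pairs per ethanol library against 0, near the floor of what a library can show, so no fold is given. The log2 difference of (TPM + 0.5) was 1.76 ± 0.45 (limma, unadjusted p = 0.00259, adjusted p = 0.656), and without ethanol replicate 1 it was 1.51 and no longer called (unadjusted p = 0.0121).

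In stress and in ethanol + stress mice the called transcript was Dnmt1-203, which starts just after the CpG-rich stretch shown above and held 2.89% of the Dnmt1 TPM. It was at 1.16, 1.93 and 0.994 TPM in controls and 0.0588, 0.841 and 0.686 TPM in the ethanol group. It was at 0.0513, 0.00207 and 0 TPM in stress and 0.468, 0.425 and 0.201 TPM in ethanol + stress mice. All 9 exposed mice lay below all 3 controls, as did 2 of 46 member transcripts (the other is Uhrf2-203), beside 0.678% of all transcripts that lay on either side. The log2 difference was -1.82 ± 0.34 in stress (unadjusted p = 0.000256, adjusted p = 0.689), -1.09 ± 0.34 in ethanol + stress (unadjusted p = 0.00874, adjusted p = 0.814) and -0.92 ± 0.34 in ethanol mice (unadjusted p = 0.0209, not called). The call in stress mice held without each library in turn, while that in ethanol + stress mice was lost without any of 9 libraries and the interaction without any of 7, with unadjusted p up to 0.0367 and 0.0149 (limma). Without the 3 libraries of low Syt1 the call in stress mice held, and those in ethanol + stress mice (-0.91) and for the interaction (2.07) were lost (limma, unadjusted p = 0.102 and 0.0114). With all libraries the interaction was 1.65 ± 0.48 (unadjusted p = 0.00587, adjusted p = 1) and the test of any difference gave an unadjusted p of 0.0022 (adjusted p = 0.645).

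These calls ended when Dnmt1-203 was added to its neighbour Dnmt1-207. The latter starts 18 bases further on, shares 5540 bases with Dnmt1-203 and has 3 that Dnmt1-203 lacks, and was under the limit for testing. It was at about 0 in all control mice, 0.288, 0 and 0 TPM in ethanol, 0.851, 1.11 and 0 TPM in stress and 0.432, 0.470 and 0 TPM in ethanol + stress mice, so it was present in several libraries where Dnmt1-203 was near 0. The sum of both was 1.16, 1.93 and 0.994 TPM in controls, 0.347, 0.841 and 0.686 TPM in ethanol, 0.902, 1.11 and 0 TPM in stress and 0.901, 0.895 and 0.201 TPM in ethanol + stress mice. Stress mice then overlapped with control, and the log2 differences were -0.72 ± 0.48 with ethanol, -0.81 ± 0.48 with stress and -0.71 ± 0.48 with both (unadjusted p = 0.159, 0.119 and 0.164). The 2 transcripts that held most of Dnmt1, Dnmt1-201 (60.1%, coding length 4860 bases) and Dnmt1-202 (25.9%, coding length 4503 bases), overlapped between all groups, with shares of 43.8% to 68.7% and 15.2% to 36.9%.

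**Figure D4:**
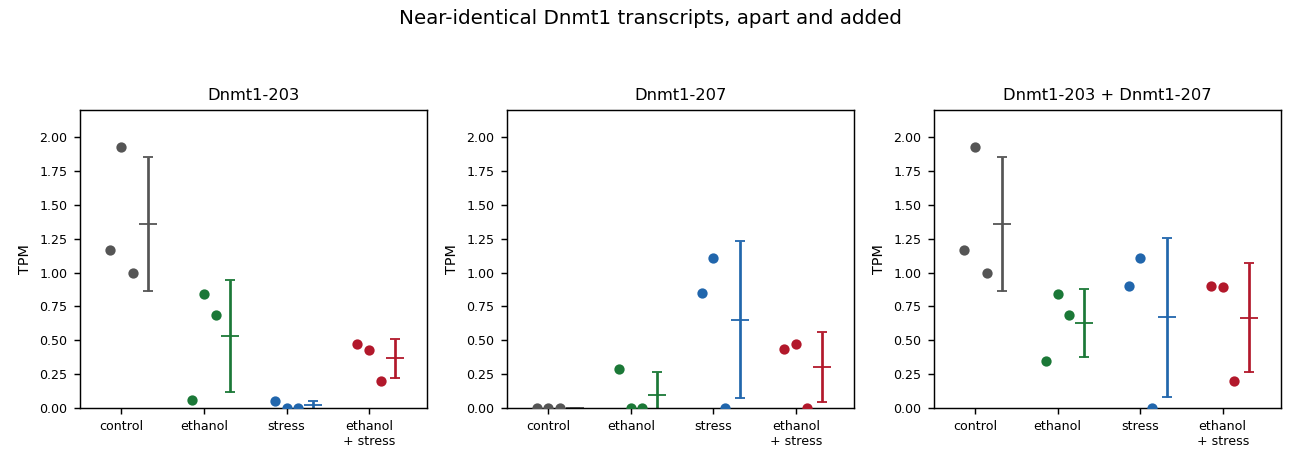
TPM (vertical axes, the same from 0 in all panels) of Dnmt1-203, of the near-identical Dnmt1-207 and of both added, in each library. Points are mice and bars the mean with SD (n = 3); for Dnmt1-203 alone all exposed mice lie below the controls, and in the sum stress mice reach 1.11 TPM and overlap with control.

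Of 61 other genes of the pathway, 60 were tested, and 0, 1 and 1 were called in ethanol, stress and ethanol + stress mice, beside the shares of all genes given above. In stress mice Mbd5, a relative of the methyl-CpG readers, was called as higher. It was at 29.4, 29.0 and 34.9 TPM in controls and 41.6, 37.1 and 40.4 TPM in the stress group, with no overlap. The log2 difference was 0.35 ± 0.09 (unadjusted p = 0.00215, adjusted p = 1). In ethanol mice it was at 37.2, 36.9 and 35.1 TPM and in ethanol + stress mice at 33.1, 33.4 and 35.3 TPM, and the interaction was -0.45 ± 0.13 (unadjusted p = 0.00398, adjusted p = 1). Both calls were lost after rescaling every library to the same total, with length weighting and over coding transcripts alone, where the stress difference was 0.33, 0.11 and 0.13, and without control replicate 1 or 2 or stress replicate 1. The interaction was also lost without ethanol replicate 1 or stress replicate 3, or without the 3 libraries of low Syt1 (-0.48, limma, unadjusted p = 0.0185). In ethanol + stress mice Mtrr, which restores methionine synthase, was called as higher. It was at 10.6, 11.5 and 12.3 TPM in controls and 16.0, 17.0 and 13.6 TPM in the ethanol + stress group. The log2 difference was 0.42 ± 0.13 (unadjusted p = 0.00922, adjusted p = 0.791). The call was lost with median-of-ratios scaling (0.40), after rescaling (0.28), with only the groups compared, with length weighting (0.29), over coding transcripts (0.20), and without any of 8 libraries (0.35 to 0.46): control 1, 2 or 3, ethanol 1, stress 1 or 2, and ethanol + stress 1 or 2. It was also lost without the 3 libraries of low Syt1 (0.46, limma, unadjusted p = 0.0205).

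The other genes fell into 4 lists, each given by its calls and its most abundant gene. None of 6 genes of maintenance and de novo methylation was called, and Usp7, a deubiquitinase that binds Dnmt1, was at 55.9 to 84.5 TPM. None of 18 tested genes of oxidation and repair was called, and Ogt, which joins the Tet proteins, was at 68.6 to 85.9 TPM. Of 19 readers and partners Mbd5 alone was called, and Ncor1, a corepressor, was at 119 to 157 TPM. Of 17 genes of methyl donor supply Mtrr alone was called, and Ahcyl1, a relative of S-adenosylhomocysteine hydrolase, was at 136 to 181 TPM. The exposed groups overlapped with control for these 4 genes, except Ogt in ethanol + stress mice, which at 75.3, 71.1 and 70.6 TPM lay below all controls (77.4, 85.9 and 85.0 TPM) with a log2 difference of -0.19 ± 0.09 (SE, limma, unadjusted p = 0.0626).

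For the most abundant member of each role, the genes with the most similar levels over the 12 libraries were found as a description. They were Ing2 (Pearson's r = 0.842, Spearman's rho = 0.846), Rnf17 (0.81 and 0.818) and Ccne1 (0.809 and 0.678) for Dnmt3a. They were Ehmt1 (0.891 and 0.937), Ccdc71l (0.881 and 0.93) and Phf3 (0.857 and 0.811) for Tet2. For Mbd2 they were Terf1 (0.927 and 0.923), Klhl33 (0.876 and 0.811) and 2310033P09Rik (0.848 and 0.846). The libraries share these groups and the scaling of the values, and without the 2 libraries farthest from the median r lay between 0.702 and 0.907.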

How the data were processed

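RNA-Seq values of the hippocampus of 12 mice, 3 per group, were analysed as labelled. The deposited values are a signal: the authors assigned paired-end reads of stranded, rRNA-depleted total RNA libraries to Ensembl mouse transcripts (mm10) with kallisto and sleuth, after CASAVA, versions not given in the sources used here, and TPM were scaled between libraries, whose sums ran from 889222 to 1173650. Transcripts (113580 of 115270 matched to GENCODE annotation by identifier) were summed per gene. TPM carry no depth, but the step worth 1 read pair could be recovered for each library: 12040000 to 14920000 read pairs, with 80.4% to 85.2% of low values whole within 0.1. These read pairs describe depth only and cover counting error only. Kallisto divides reads that several transcripts share, so levels of transcripts with few bases of their own are uncertain.

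Genes (18434) and transcripts (59852) had to reach 0.1 TPM in 6 or more libraries, and log2(TPM + 0.5) was fitted with limma 3.58.1 (R 4.3.3, eBayes with trend), 1 two-sided fit over the 4 groups without a block. Folds of low values are understated on this scale. Calls are unadjusted p under 0.01; adjusted p are Benjamini-Hochberg values over all features. Scripts were tested on simulated data. Tables used Python 3.11.15, pandas 2.3.3 and numpy 2.4.6, and figures matplotlib 3.10.9. The members, pathway lists and markers were chosen with earlier results of these data known. Text names all members, transcripts with 10% or more of their gene's TPM or called, other pathway genes called or most abundant in their list, and the 3 genes most like the top member of each role; Tet1-201, Dnmt1-207, Dnmt3a-205 and Uhrf2-203 were named after their values were seen. Alternatives were the pseudocount, filter, scaling, variance trend, groups fitted, replicate block and each library left out, and, chosen after seeing the data, length-weighted and coding-only sums, the sum of Dnmt1-203 and Dnmt1-207, and 3 libraries of low Syt1 left out.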

Additional observations from a re-analysis of the deposited data

Results flagged for a closer look

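Single values far from the rest of their group were not tested for, since groups held 3 mice. The effect of stress differed with ethanol for 1 member transcript and 1 other pathway gene, by the interaction test at an unadjusted p under 0.01. For Dnmt1-203 the interaction was 1.65 on the log2 scale: stress mice (0 to 0.0513 TPM) lay further below control (0.994 to 1.93 TPM) than ethanol + stress mice (0.201 to 0.468 TPM) lay below ethanol mice (0.0588 to 0.841 TPM), which they overlapped. Added to Dnmt1-207, the interaction was 0.81 (limma, unadjusted p = 0.253). For Mbd5 it was -0.45: the gene was higher in stress than in control mice in all 3 mice, and lower or level in ethanol + stress (33.1 to 35.3 TPM) than in ethanol mice (35.1 to 37.2 TPM). Weighted by transcript length it was -0.21 and not called (limma, unadjusted p = 0.225). Over all features both had an adjusted p = 1 (limma).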

How the results depend on the processing

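For the 9 genes the count of calls stayed at 0 in every comparison and alternative except ethanol + stress after rescaling every library to the same total, where it was 1 (Dnmt3a, -0.44, limma, unadjusted p = 0.00992). Of 851 alternative gene values this 1 passed the threshold, and no called value changed sign. After that rescaling the median over all genes in ethanol + stress mice was -0.092, against 0.023 as deposited. For transcripts, 0 were called in all 5 comparisons with a minimum of 1 TPM, which leaves Dnmt1-203 and Dnmt3a-208 untested. In ethanol + stress mice 0 were called with a pseudocount of 0.1 (Dnmt1-203 at -1.65, limma, unadjusted p = 0.0345) and with no filter (limma, unadjusted p = 0.0132), where 2 were called for any difference. With Dnmt1-203 and Dnmt1-207 added, 0 were called in every comparison but ethanol. With only the groups compared, Dnmt1-203 in ethanol + stress mice had an unadjusted p = 0.0167 (limma). Other pathway genes: 0 for ethanol + stress with median-of-ratios scaling, 0 for stress and the interaction after rescaling, 2 for stress and 0 for ethanol + stress with only the groups compared, 1 for any difference with no filter, 0 for stress, ethanol + stress and the interaction with length weighting, and 0 for the interaction and 1 for any difference with coding-only sums. A count of 1 was not always Mbd5 or Mtrr: in ethanol + stress mice it was Gadd45b after rescaling, and with coding-only sums it was Mbd6 in stress mice, in ethanol + stress mice and for any difference. With only the groups compared, the other gene in stress mice was Apobec1.

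Without the 3 libraries of low Syt1, 0 member genes were called in any comparison, and 2 member transcripts were called in ethanol + stress, 2 for the interaction and 3 for any difference. Of the other pathway genes 1 was called in ethanol (Trdmt1), 0 in ethanol + stress and 1 for the interaction (Trdmt1). Dnmt1 in ethanol + stress mice was 0.12.

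Replicate numbers did not pair the mice: of 18 same-number pairs 1 correlated above 0.1 (r from -0.173 to 0.164), and 8 of 36 library and group choices had the own number as the best match. With a replicate block, 0 member transcripts were called in ethanol + stress mice (Dnmt1-203 at -1.09, limma, unadjusted p = 0.011) and 2 for the interaction, and no other count of member genes or transcripts changed.

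Leaving out 1 library gave 0 gene calls throughout, 0 to 2 transcripts in ethanol, 1 to 2 in stress, 0 to 2 in ethanol + stress, 0 to 2 for the interaction and 1 to 3 for any difference, and 0 to 2, 0 to 1, 0 to 2, 0 to 3 and 0 to 2 other pathway genes. Dnmt1-203 stayed called in stress mice throughout (-1.96 to -1.61). In ethanol + stress mice (-1.23 to -0.88) the call was lost without any of 9 libraries: control 1 (limma, unadjusted p = 0.0149) or 2 (0.0349), ethanol 3 (0.0101), stress 1 (0.0134), 2 (0.0137) or 3 (0.0139), and ethanol + stress 1 (0.0139), 2 (0.0171) or 3 (0.0367). The interaction (1.26 to 1.89) was lost without any of 7: control 2 (0.014), ethanol 1 (0.0105), stress 1 (0.0111), 2 (0.014) or 3 (0.0143), and ethanol + stress 1 (0.0149) or 2 (0.0143). In ethanol mice (-1.16 to -0.53) it was called without ethanol 2 (-1.16, limma, unadjusted p = 0.00894). Mbd1-201 ranged from -1.98 to -0.66 and Uhrf2-203 from -1.18 to -0.64 in stress and -1.18 to -0.66 in ethanol + stress mice. Without stress 2, Uhrf2-203 was called in stress mice (-1.18, limma, unadjusted p = 0.00717). Without ethanol + stress 2, Uhrf2-203 (-1.18, limma, unadjusted p = 0.00794) and Mbd1-201 (-1.98, limma, unadjusted p = 0.00109) were called in ethanol + stress mice.

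Mbd5 ranged from 0.30 to 0.43 in stress mice and -0.54 to -0.41 for the interaction, and Mtrr from 0.35 to 0.50, with calls lost without 3, 5 and 8 libraries.

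Of 36 log2 differences of the 9 genes, the 29 that the text does not name were all uncalled, and 27 of them changed sign under at least 1 alternative, where the value was at most 0.262 in size. Of the named ones those of Tet1 in ethanol mice (-0.056 over coding transcripts) and of Dnmt1 in ethanol + stress mice did. The cause of these changes was not tested.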
